A study of Mus musculus with 18 samples.

Results

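Malat1, Neat1, Miat, Meg3, Rian and Snhg11 are 6 long noncoding RNAs, taken by symbol from 34921 gene entries, and all 6 reached the 1 FPKM needed for testing. They were followed after photothrombotic stroke, in which a light-sensitive dye, rose bengal, clots cerebral vessels under a laser spot. No member passed the test against sham right at any time after stroke, where 1.18% to 7.36% of all tested genes did. Libraries of the same group differed widely: the highest value in a group was up to 9.36-fold the lowest for Malat1, 7.61-fold for Meg3, 6.25-fold for Snhg11 and 5.33-fold for Miat, although in sham right it was 1.52- to 2.15-fold for these 4. They moved together over all 18 libraries, where the highest value was 7.04- to 12.8-fold the lowest, against 5.10-fold for Neat1 and 1.45-fold for Rian.

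All mice were 9-week-old males of the inbred C57BL/6 strain. The groups, with 3 libraries each, are the right-side lesion at 4 h (libraries 2, 3 and 6), 1 day (1, 3 and 4), 3 days (1, 2 and 8) and 10 days (1, 2 and 5) after stroke, the contralateral left side (1, 3 and 5) and the sham right side (1, 2 and 3). Per the protocol, rose bengal (100 mg/kg) preceded 15 min of light (532 nm, 40 mW) by 5 min, the lesion was punched with magnetic resonance images as a guide, and each time and the sham group had 3 animals; what the sham mice received is not described separately. The contralateral left punches come from mice with stroke per the protocol but from sham animals per their labels, with no time given. Numbers 1 and 3 occur in both the left and the sham right titles under one prefix, which may mark 2 sides of one mouse, but the labels do not say so. A punch mixes all cells of the tissue, so fewer cells of a type and less RNA per cell cannot be told apart in any value below.

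Long noncoding RNAs are transcripts that act as RNA rather than through a protein, and many stay in the nucleus. Malat1 collects in nuclear speckles, the bodies that hold splicing factors. Neat1 is the scaffold of paraspeckles, neighbouring bodies that retain proteins and edited RNAs. Miat, also called Gomafu, forms a separate nuclear compartment in neurons and binds splicing factors through a repeated motif. Meg3 and Rian are transcribed in the same direction from the maternal copy of the imprinted Dlk1-Dio3 domain, and Rian (Meg8) hosts small nucleolar RNAs. Snhg11 is a small nucleolar RNA host gene expressed in neurons.

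On GRCm38 with the GENCODE M21 annotation, Malat1 is at chr19:5795690-5802672 and Neat1 at chr19:5824708-5845478, both lincRNAs on the minus strand. Miat is at chr5:112213228-112229395 on the minus strand and is also a lincRNA. Meg3, a lincRNA, is at chr12:109541001-109571726 and Rian, a processed transcript, at chr12:109603940-109661716, both on the plus strand. Snhg11 is at chr2:158375638-158386145 on the plus strand and carries the annotated type protein coding.

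The sequences that bear on the members' named features are a stretch near the annotated end of Malat1 and the repeats of Miat. The Malat1 stretch is bases 6601 to 6685 of the 6983-base Malat1 transcript (chr19:5795988-5796072, minus strand). Capitals mark the U-rich tracts and a run of A from the A-rich tract. These tracts are known to pair into a triple helix that protects an end without a poly(A) tail.
Malat1: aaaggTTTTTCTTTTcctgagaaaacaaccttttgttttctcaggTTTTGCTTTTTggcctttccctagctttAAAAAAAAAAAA
The Miat stretch is bases 4931 to 5082 of the longest Miat transcript (chr5:112217309-112217460, minus strand), with the motif TACTAAC in capitals. That transcript held 6 copies of TACTAAC in 9163 bases, counted on the transcribed strand. Of 6015 lincRNA genes, by the longest transcript of each, 3.76% held any copy and 0.0166% as many as Miat, which is Miat itself. Among the 71 of them with a longest transcript of at least 5000 bases, 15.5% held any copy and 1.41%, again Miat itself, as many. The longest transcript of Neat1 held 1 copy, and those of the other members held 0.
Miat: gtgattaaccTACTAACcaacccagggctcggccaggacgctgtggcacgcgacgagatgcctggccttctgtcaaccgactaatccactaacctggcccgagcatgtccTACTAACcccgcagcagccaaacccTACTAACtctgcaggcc

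Malat1 had 122, 108 and 173 FPKM at 4 h, 106, 37.7 and 191 at 1 day, 141, 67.1 and 126 at 3 days and 124, 28.3 and 32.1 at 10 days. It had 14.9, 18.99 and 139 FPKM in contralateral left, against 39.9, 60.6 and 52.5 FPKM in sham right. Every library of the 4 h and 3 day groups lay above sham right, while at 1 day, at 10 days and on the left side the groups overlapped. The lowest and highest values of the contralateral left group differed 9.36-fold and those of sham right 1.52-fold. Malat1 was the 122nd most abundant entry in 1 day library 4 and the 2777th in contralateral left library 1.

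Meg3 had 45.3, 41.5 and 102 FPKM at 4 h, 50.3, 18.1 and 90.1 at 1 day, 58.7, 30.2 and 89.6 at 3 days and 47.1, 16.9 and 14.5 at 10 days. It had 12.03, 14.7 and 91.5 FPKM in contralateral left, against 15.3, 26.5 and 25.9 FPKM in sham right. As for Malat1, the 4 h and 3 day libraries lay above all of sham right and the other groups overlapped it. One library each at 4 h (6), 1 day (4), 3 days (8) and on the left side (5) held 89.6 FPKM or more, and every other library 58.7 or less.

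Snhg11 had 91.0, 82.4 and 170 FPKM at 4 h, 98.1, 44.5 and 145 at 1 day, 106, 57.0 and 166 at 3 days and 74.0, 37.3 and 52.6 at 10 days. It had 24.1, 36.0 and 151 FPKM in contralateral left, against 30.8, 48.0 and 47.9 FPKM in sham right. The 4 libraries with the most Meg3 also had the most Snhg11, and the 4 h and 3 day groups did not overlap sham right.

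Miat, at a lower level, had 7.86, 7.38 and 16.7 FPKM at 4 h, 10.8, 4.24 and 15.9 at 1 day, 10.8, 6.23 and 14.9 at 3 days and 8.95, 3.98 and 1.68 at 10 days. It had 3.81, 5.60 and 14.2 FPKM in contralateral left, against 3.08, 4.80 and 6.62 FPKM in sham right. The same 4 libraries were highest. At 4 h alone the stroke libraries stayed apart from sham right, since 3 day library 2 fell below sham library 3.

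Rian had 27.2, 24.4 and 26.9 FPKM at 4 h, 24.7, 24.4 and 27.8 at 1 day, 21.97, 22.7 and 26.7 at 3 days and 20.8, 19.2 and 21.6 at 10 days. It had 23.8, 23.5 and 27.4 FPKM in contralateral left, against 20.3, 24.1 and 23.0 FPKM in sham right. The whole range, 19.2 to 27.8 FPKM, was narrower than the range of Meg3 within any stroke group, although the genes are neighbours. The 4 h and 1 day libraries lay above all of sham right, and the 10 day libraries below all of the 4 h, 1 day and 3 day ones.

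Neat1 had 2.41, 1.93 and 1.94 FPKM at 4 h, 1.89, 0.938 and 2.40 at 1 day, 3.65, 2.27 and 4.57 at 3 days and 3.27, 1.98 and 0.896 at 10 days. It had 1.57, 1.49 and 1.75 FPKM in contralateral left, against 1.69, 1.61 and 1.55 FPKM in sham right. Its highest group was 3 days, where each library exceeded every sham and left library, and the 4 h libraries also lay above sham right. The values are per gene and do not separate the short and the long Neat1 isoform. A 110-base annotated entry inside Neat1 on the same strand, Gm27505 (chr19:5844638-5844747), ran from 0.117 to 37.5 FPKM and had 34.9, 23.1 and 37.5 FPKM at 3 days, against 9.78, 0.119 and 16.5 FPKM in sham right. Reads could be split between the 2 entries, so Neat1 is uncertain to that extent.

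**Figure D1:**
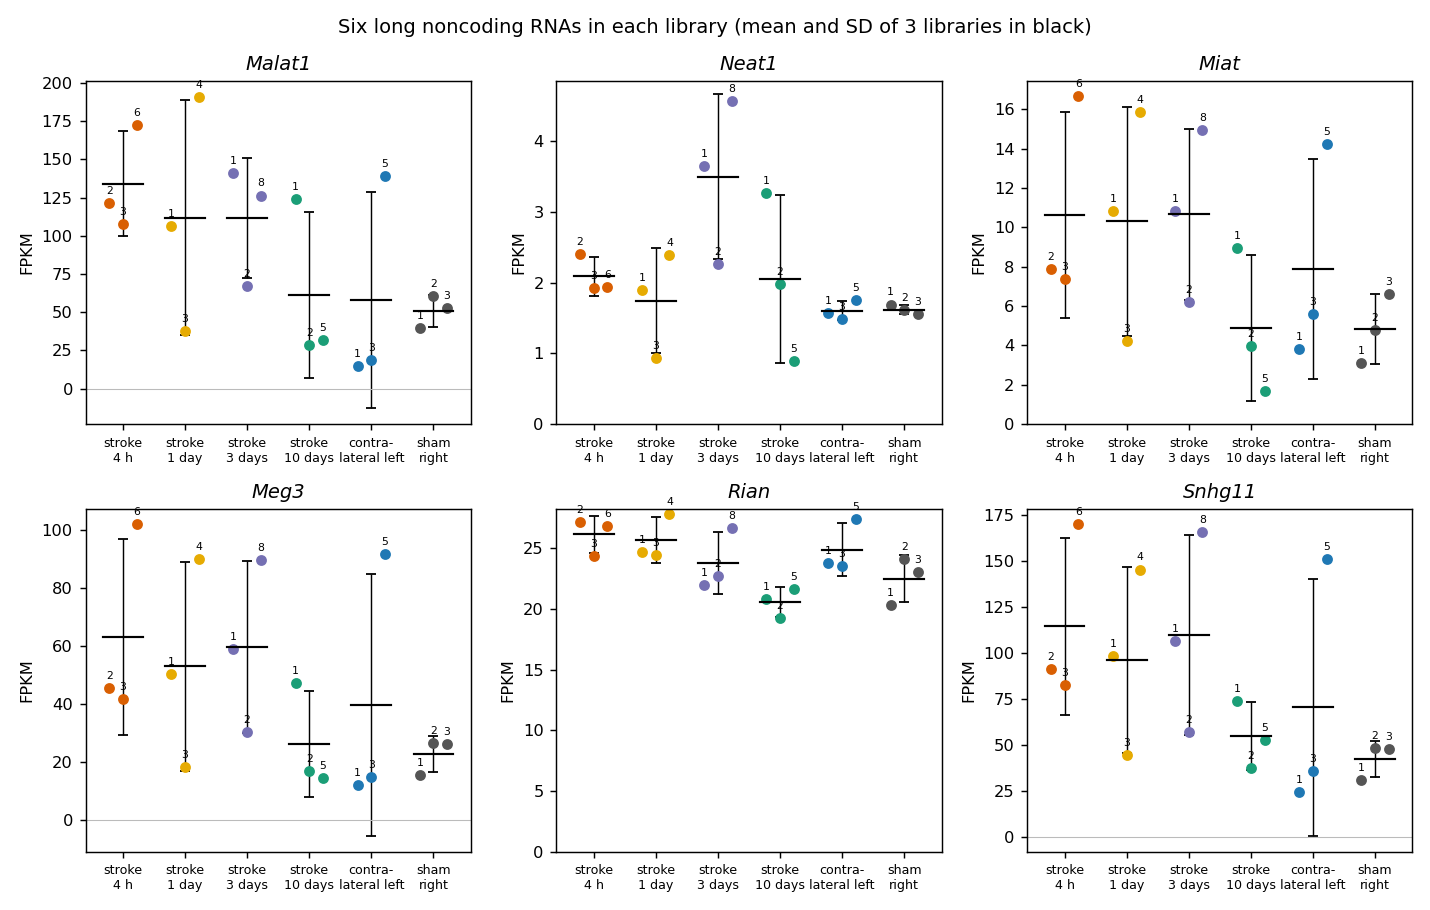
FPKM (vertical axis, from 0 or below) of each member in each library (points, numbered as in the labels), by group along the horizontal axis, with the mean and SD of 3 libraries in black. Malat1, Meg3, Miat and Snhg11 spread widely within groups, with 1 high library each at 4 h, 1 day, 3 days and on the left side for Meg3, while Rian stayed between 19.2 and 27.8 FPKM.

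Each group was compared with sham right in a limma fit of log2(FPKM + 1) over all 14016 tested genes and all 18 libraries, with Benjamini-Hochberg adjustment over all genes and a call at an adjusted p under 0.05. On this scale the change of a low gene such as Neat1 is understated. The 5 comparisons use one set of sham right libraries and are not independent of each other.

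At 4 h, 0 of 6 members passed the test, where 2.18% of all tested genes did. All 6 members had log2 fold changes above 0, with a median of 1.15 against 0.0058 over all tested genes. In all 6 the libraries lay above every sham right library, which held for 18.8% of tested genes (35.9% stood apart in either direction). Malat1, Meg3, Miat and Snhg11 moved together over the libraries (Pearson r from 0.838 to 0.972), so the 6 are not independent observations. Neat1 and Rian lay far below that median, at 0.24 and 0.21. Snhg11 averaged 114 ± 48.2 FPKM at 4 h and 42.3 ± 9.89 in sham right (SD, n = 3 each), a log2 fold change of 1.37 ± 0.58 (SE; 95% interval 0.14 to 2.59; limma adjusted p = 0.253). Malat1 averaged 134 ± 34.2 FPKM at 4 h and 51.0 ± 10.47 in sham right, a change of 1.37 ± 0.73 (adjusted p = 0.365). Snhg11 was the 1 member with an unadjusted limma p under 0.05 (0.0309), which 16.5% of tested genes reached.

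The changes of the other members at 4 h were 1.35 ± 0.70 for Meg3, 0.95 ± 0.53 for Miat, 0.24 ± 0.25 for Neat1 and 0.21 ± 0.11 for Rian (SE), with adjusted p from 0.352 to 0.663. When the spread was estimated from the 4 h and sham right libraries alone, Malat1 (limma adjusted p = 0.0179) and Snhg11 (0.0420) passed. Each passed in only this 1 of 31 alternative settings. Over all 31, limma adjusted p ran up to 0.724 for Malat1 and 0.638 for Snhg11. The groups which that fit leaves out include contralateral left, where the highest Malat1 value was 9.36-fold the lowest, against 1.52-fold in sham right.

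At 1 day, 0 of 6 members passed the test (1.18% of all tested genes did), and 0 had an unadjusted limma p under 0.05 (8.58%). The log2 fold changes ran from 0.03 ± 0.25 for Neat1 to 1.04 ± 0.58 for Snhg11 (SE), with adjusted p from 0.715 to 0.987. Rian, at 25.7 ± 1.89 FPKM at 1 day and 22.5 ± 1.95 in sham right (SD, n = 3 each), was the 1 member whose groups did not overlap, as in 22.8% of tested genes in either direction.

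At 3 days, 0 of 6 members passed, where 7.36% of all tested genes did. Neat1 averaged 3.50 ± 1.16 FPKM at 3 days and 1.62 ± 0.068 in sham right (SD, n = 3 each), a log2 fold change of 0.75 ± 0.25 (SE; 95% interval 0.21 to 1.29; limma unadjusted p = 0.00976, adjusted p = 0.104). Neat1 passed in 5 of 30 alternative settings. Over all 30, limma adjusted p ran from 0.0307 to 0.460. Among the 5 were fits without 3 day library 2, the lowest of its group (adjusted p = 0.0387), and without 10 day library 5 (0.0342). Another used both control groups as control (0.0384). With 1 library left out in turn, the log2 fold change ran from 0.58 to 0.96. Snhg11 changed by 1.26 ± 0.58 (unadjusted p = 0.0452, adjusted p = 0.290), and Malat1, Neat1, Meg3 and Snhg11 lay above all of sham right, which 27.2% of tested genes did (36.8% stood apart in either direction). An unadjusted limma p under 0.05 was reached by 2 members and by 16.3% of tested genes.

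At 10 days, 0 of 6 members passed and 0 stood apart from sham right, where 7.13% of all tested genes passed and 27.0% stood apart in either direction; 0 had an unadjusted limma p under 0.05 (19.4% of tested genes). The changes ran from -0.15 ± 0.53 for Miat to 0.34 ± 0.58 for Snhg11 (SE), with adjusted p from 0.586 to 0.981. On the contralateral left side, 0 of 6 members passed (0.0285% of all tested genes), 0 had an unadjusted limma p under 0.05 (7.68%) and 0 stood apart (11.9%). Malat1 had a difference of -0.53 ± 0.73 there, and Meg3 0.22 ± 0.70. Without left library 5, which held the most of all 6 members in that group, the difference was -1.52 for Malat1 (limma adjusted p = 0.135), -0.68 for Meg3 and -0.48 for Snhg11. In a fit of the left and sham right libraries alone with the library number as a replicate block, added after seeing the data, Malat1 passed at -1.39 (limma adjusted p = 0.00856). That fit compares only numbers 1 and 3, since left library 5 and sham library 2 have no partner, and leaves 1 residual degree of freedom.

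**Figure D2:**
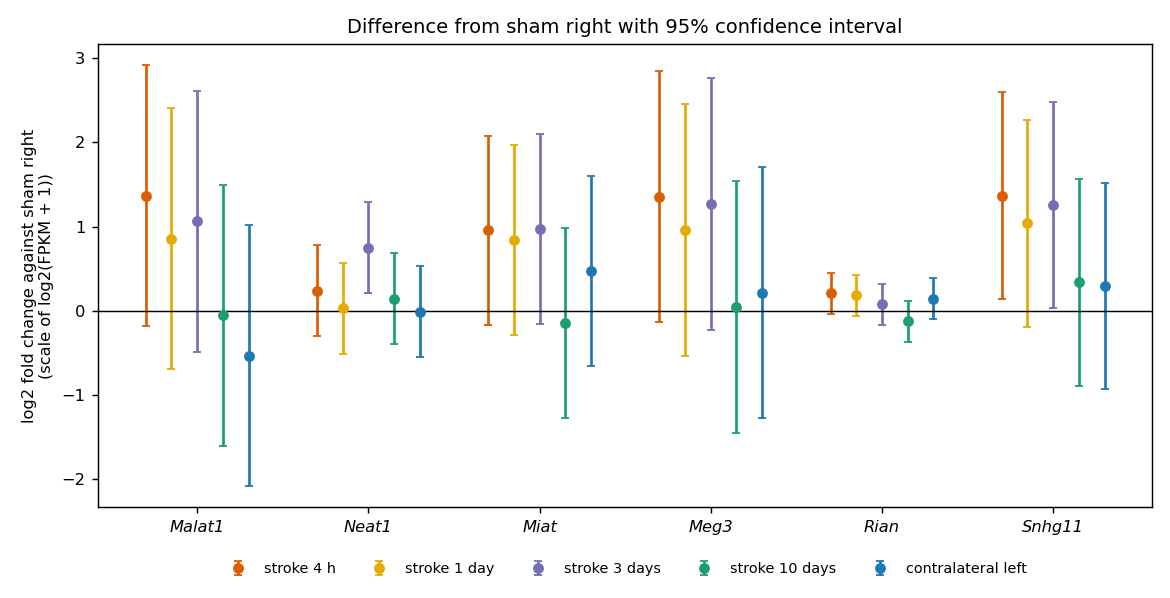
Log2 fold change against sham right (vertical axis, scale of log2(FPKM + 1)) of each member (horizontal axis) for the 4 times after stroke and the contralateral left side, with 95% confidence intervals from the limma fit. The intervals of Snhg11 at 4 h and 3 days and of Neat1 at 3 days lie above 0 before adjustment over genes, and those of Malat1 and Meg3 span about 3 log2 units.

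Steps between times passed for 0 of 6 members in each comparison, and the test for a change at any time for 0 of 6 (limma adjusted p from 0.211 to 0.437, where 13.5% of tested genes passed; 0 unadjusted, against 26.1%). Between 10 days and 4 h, the comparison with the most calls (15.8% of all tested genes), Rian averaged 20.6 ± 1.22 FPKM at 10 days and 26.1 ± 1.54 at 4 h (SD). The change was -0.33 ± 0.11 (SE; limma adjusted p = 0.0610). Rian was the 1 member with an unadjusted p under 0.05 (31.7% of tested genes), and Rian and Snhg11 stood apart (35.9%). Rian passed this test in 3 of 29 alternative settings. Over all 29, limma adjusted p ran from 0.0242 to 0.207. Among the 3 were the fit without contralateral left library 5 (0.0325) and that with FPKM rescaled without mitochondrial genes (0.0484). Between 3 days and 1 day, where 5.22% of all tested genes passed, Neat1 differed by 0.72 ± 0.25 (limma adjusted p = 0.155) and was the 1 member with an unadjusted p under 0.05 (12.7% of tested genes). Between 10 days and 3 days (2.02% passed) Neat1 differed by -0.60 ± 0.25 (limma adjusted p = 0.255), again the 1 member with an unadjusted p under 0.05 (17.2%), and Rian alone stood apart (25.9%). Between 1 day and 4 h, where 1.23% of tested genes passed, the members' limma p ran from 0.428 to 0.839 before adjustment and from 0.888 to 0.977 after it.

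The spread within groups sets how large a change could have been called. The within-group SD of log2(FPKM + 1), pooled over the 6 groups, was 1.02 for Malat1, 0.98 for Meg3, 0.80 for Snhg11 and 0.74 for Miat, against a median of 0.22 over all tested genes. That of Malat1 exceeded the SD of 99.7% of tested genes and that of Miat 99.1%, and the shares were 99.8% and 99.2% among genes within 0.5 log2 units of the same level. Neat1, with an SD of 0.34, exceeded 82.2% of tested genes, and Rian, with 0.11, exceeded 5.91%. These percentiles describe the members among genes and carry no test.

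**Figure D3:**
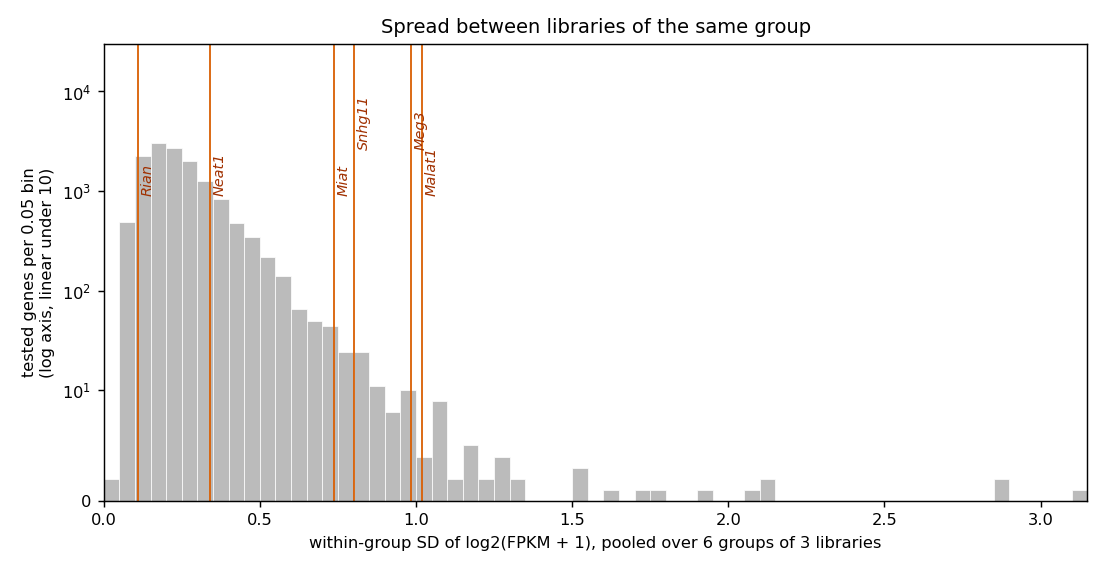
Number of tested genes (vertical axis, logarithmic above 10) by the within-group SD of log2(FPKM + 1) (horizontal axis), with the members as vertical lines. Malat1, Meg3, Snhg11 and Miat lie in the thin right tail, Neat1 above the median of 0.22 and Rian below it.

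The 4 most variable members moved together over the libraries. Meg3 and Snhg11 had a Pearson r of 0.972 (Spearman's rho 0.942), Malat1 and Meg3 0.948 (0.959), Miat and Meg3 0.943 (0.955), Malat1 and Snhg11 0.921 (0.920), Miat and Snhg11 0.877 (0.903) and Malat1 and Miat 0.838 (0.899), over 18 libraries. Permutation p was 1e-05 for r, the smallest that 100000 permutations can give, except 2e-05 for Malat1 and Miat; rho gave 1e-05 for all 6 pairs, and adjustment over all 15 pairs of members left r at 5e-05 or less. Without the 2 libraries farthest from the median of the first gene, r for these 6 pairs was 0.906 to 0.965.

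The relation also held within groups, since deviations from the group means gave r from 0.864 to 0.967 for these 6 pairs. Neat1 was related to the 4 less closely, with r from 0.555 (Snhg11, permutation p = 0.0158, rho 0.618, p = 0.00733) to 0.649 (Miat, p = 0.00325, rho 0.637, p = 0.00536). Rian had r from 0.532 (Malat1, p = 0.0241, rho 0.550, p = 0.0197) to 0.666 (Snhg11, p = 0.00279, rho 0.633, p = 0.00576). No relation between Rian and Neat1 was detected (r = 0.123, p = 0.629; rho 0.143, p = 0.568). The points share library depth and the sum that FPKM are scaled to.

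The same libraries stood at the ends of the order. Library 4 at 1 day and library 8 at 3 days were among the 5 highest for all 6 members, and library 6 at 4 h and contralateral left library 5 for 5 of 6. Contralateral left library 1 and 10 day libraries 2 and 5 were among the 5 lowest for 5 of 6. Contralateral left library 3, sham right library 1 and 1 day library 3 were among the 5 lowest for 4 of 6. The 3 sham right libraries held no place among the 5 highest for any member.

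**Figure D4:**
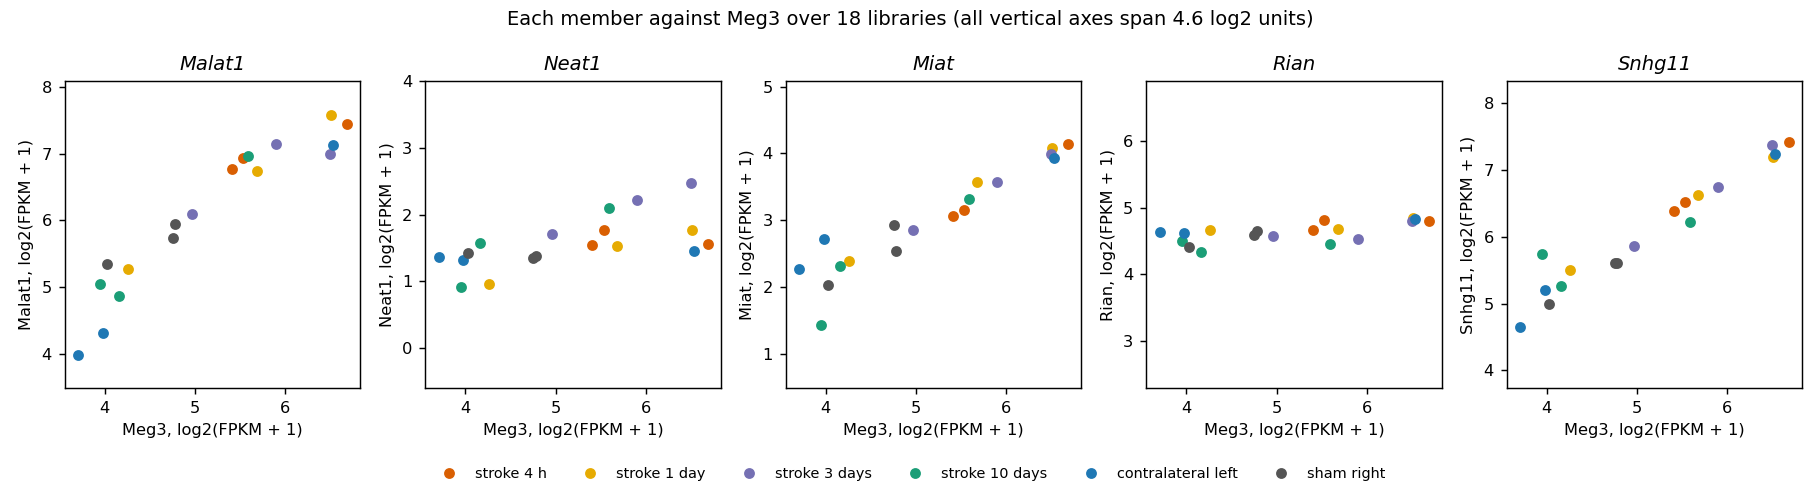
Level of 5 members (vertical axes, log2(FPKM + 1), all with the same span) against Meg3 (horizontal axes, log2(FPKM + 1)) in 18 libraries coloured by group. Snhg11, Malat1 and Miat climb with Meg3 (r of 0.972, 0.948 and 0.943), Neat1 less closely (0.633), and Rian stays nearly level (0.652, over a range of 19.2 to 27.8 FPKM).

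Ratios were taken of FPKM + 1, which makes the log2 ratio of the low Neat1 to Malat1 less negative than plain FPKM would. The log2 ratio of Rian to Meg3, neighbours on one chromosome, ran from -1.88 to 0.93 over the libraries. It averaged -1.11 ± 0.67 at 4 h and -1.16 ± 0.68 at 3 days, against 0.03 ± 0.31 in sham right (SD, n = 3 each; exact two-sided permutation p = 0.1 for both, the smallest that 3 against 3 allow). The log2 ratio of Neat1 to Malat1 was -5.42 ± 0.40 at 4 h and -4.29 ± 0.33 in sham right (SD, n = 3 each; exact permutation p = 0.1), and -4.61 ± 0.29 at 3 days (exact p = 0.5). At 1 day, at 10 days and on the left side, exact p ran from 0.3 to 1 for both ratios.

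Within Rian, 18 annotated short or nested entries had their own values, 10 of them below 1 FPKM in every library. The highest were the small nucleolar RNA entry Gm23600, at 0.236 to 6.53 FPKM, and the microRNA entry Mir341, at 0 to 4.35 FPKM. In Snhg11 the small nucleolar RNA Gm25129 ran from 0 to 6.32 FPKM. Entries on the opposite strand were at or near 0 for Malat1 (Gm37376, at most 0.0019 FPKM) and Meg3 (Gm26906, at most 0.027 FPKM). An antisense lincRNA over Miat, Gm26953, was not analysed here, and whether the counting used strand is not given in the sources used here, so Miat could hold its reads.

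The starts of the 4 RNAs that moved together and of Rian are shown from RefSeq (GRCm38.p6), 250 bases before to 50 after the start, on the transcribed strand; promoters of 5 of 6 members matched the table. Motifs searched on both strands are in capitals. They are TATAAA (the TATA box, in 13.6% of 32544 promoters of this length), CCAAT (the CCAAT box, in 37.4%), GGGCGG (a GC box, in 35.9%), TGACG (a partial cyclic AMP response element, in 20.9%) and TGACGTCA (the whole, palindromic element, which contains TGACG, in 1.8%).
Malat1 (chr19:5802623-5802922, minus strand): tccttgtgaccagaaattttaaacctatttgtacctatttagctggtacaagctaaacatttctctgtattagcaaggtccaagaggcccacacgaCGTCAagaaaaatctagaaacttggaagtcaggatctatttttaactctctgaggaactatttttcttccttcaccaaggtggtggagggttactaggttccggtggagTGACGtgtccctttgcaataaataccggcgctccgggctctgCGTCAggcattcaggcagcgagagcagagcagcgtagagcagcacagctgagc
Meg3 (chr12:109540746-109541045, plus strand, the first of 2 entries): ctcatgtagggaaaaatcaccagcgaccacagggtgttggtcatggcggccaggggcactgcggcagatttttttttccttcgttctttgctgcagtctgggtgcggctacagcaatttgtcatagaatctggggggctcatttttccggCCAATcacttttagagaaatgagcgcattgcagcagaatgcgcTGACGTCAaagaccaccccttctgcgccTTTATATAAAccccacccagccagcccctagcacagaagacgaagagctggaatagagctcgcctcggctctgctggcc
Snhg11 (chr2:158375463-158375762, plus strand): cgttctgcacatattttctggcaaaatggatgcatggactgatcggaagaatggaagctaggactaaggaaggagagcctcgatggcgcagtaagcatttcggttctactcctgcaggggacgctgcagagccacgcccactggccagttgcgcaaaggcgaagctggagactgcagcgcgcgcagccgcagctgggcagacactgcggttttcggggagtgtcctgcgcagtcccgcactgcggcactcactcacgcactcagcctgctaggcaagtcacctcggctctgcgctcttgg
Miat (chr5:112228899-112229198, minus strand): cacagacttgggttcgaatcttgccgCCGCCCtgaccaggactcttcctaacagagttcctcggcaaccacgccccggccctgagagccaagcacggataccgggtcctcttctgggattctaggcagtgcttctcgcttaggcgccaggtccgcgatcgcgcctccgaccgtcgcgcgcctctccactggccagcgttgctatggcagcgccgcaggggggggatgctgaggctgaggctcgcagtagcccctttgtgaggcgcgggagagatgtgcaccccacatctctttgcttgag
Rian (chr12:109603695-109603994, plus strand): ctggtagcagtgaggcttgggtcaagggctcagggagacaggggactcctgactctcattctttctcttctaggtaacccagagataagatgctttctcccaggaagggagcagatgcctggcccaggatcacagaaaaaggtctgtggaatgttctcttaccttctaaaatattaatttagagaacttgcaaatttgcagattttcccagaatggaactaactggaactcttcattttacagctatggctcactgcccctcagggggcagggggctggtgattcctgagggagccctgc
The Meg3 promoter held TATAAA at position -25 from the start and, overlapping it, its complement at -29, CCAAT at -100 and TGACGTCA at -57. The Malat1 promoter held 3 matches to TGACG and that of Miat 1 to GGGCGG, while those of Snhg11 and Rian held none of the 5. The dinucleotide CG occurred 25 times in the Miat promoter, 21 in that of Snhg11, 13 in Meg3, 10 in Malat1 and 0 in Rian. A match is a run of letters and was not tied to any level here.

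The genes most like each member, by Pearson r of log2(FPKM + 1) over 18 libraries, were of several types. For Meg3 they were Tmem181b-ps (r = 0.987), an annotated pseudogene, Gm38020 (0.983) and Gm38102 (0.981), both with little annotation. For Snhg11 they were Ftx (0.984), a noncoding RNA of the X-inactivation center, A230057D06Rik (0.976) and Arglu1 (0.974). For Malat1 they were C2cd5, Gm38372 and Zfp445 (0.965 to 0.949), and for Miat Gm27000, Lrrc45 and Sirt4 (0.962 to 0.954). The genes most like Neat1 were Fbxw17, Nek9 and Rnh1 (0.866 to 0.862), and those most like Rian were Gm45151, Parp6 and Gm996 (0.834 to 0.795). These correlations are descriptions over the libraries and carry no test.

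An r of 0.8 or more with Malat1 was found for 9.08% of the 14010 other tested genes, with Meg3 for 9.11%, with Snhg11 for 7.39% and with Miat for 5.17%, but with Neat1 for 0.207% and with Rian for 0.0143%. Entries of the annotation type TEC, transcripts whose status is unsettled, reached it with Meg3 in 40.8% of 120 cases. Coding genes in the tertile with the greatest total exon length had a median r with Malat1 of 0.56, and those in the tertile with the smallest -0.018. The 74 cytosolic ribosomal protein genes had a median r of -0.63 with Malat1, and the 37 mitochondrially encoded entries -0.72.

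The mitochondrial share of the summed FPKM ran from 24.4% to 44.6% and was lower where the members were high. Its r was -0.729 with Miat (permutation p = 0.00038; rho -0.666, p = 0.0032), -0.697 with Neat1 (p = 0.00192; rho -0.810, p = 7e-05), -0.668 with Malat1 (p = 0.0019; rho -0.738, p = 0.00066) and -0.661 with Meg3 (p = 0.00112; rho -0.728, p = 0.00091) over 18 libraries. It was -0.543 with Snhg11 (p = 0.0155; rho -0.635, p = 0.00525) and -0.206 with Rian (p = 0.42; rho -0.195, p = 0.438). Adjusted over 18 relations of this kind, p for r was 0.00684 to 0.0467 for the first 5 members and 0.429 for Rian. The share of cytosolic ribosomal protein genes, 1.47% to 3.48% of the summed FPKM, was also lower where Snhg11 was high (r = -0.561, permutation p = 0.0156, adjusted p = 0.0467; rho -0.595, adjusted p = 0.0299), and without the 2 libraries farthest from its median r was -0.643. With Rian its r was -0.471 (permutation p = 0.0476, adjusted p = 0.0952) and its rho -0.564 (adjusted p = 0.0425). The other 10 relations, of this share with the other members and of the share of other noncoding RNAs with all 6, had adjusted p of 0.0837 or more for r. Without the 2 libraries farthest from the median mitochondrial share, its r was -0.551 for Miat, -0.681 for Neat1 and -0.599 for Malat1. It was -0.587 for Meg3, -0.556 for Snhg11 and -0.085 for Rian. Deviations from the group means gave -0.724 for Miat, -0.723 for Neat1, -0.598 for Malat1 and -0.600 for Meg3. They gave -0.439 for Snhg11 and -0.012 for Rian. The permutations ignored the groups, and the mitochondrial share and the members' FPKM rest on the same sum.

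With that share as a covariate, a choice made after the data were seen, the 4 h differences were 1.27 for Malat1 and 1.31 for Snhg11 and the 3 day difference of Neat1 was 0.48, and 0 members passed. The number of fragments, estimated roughly from the smallest steps of single-exon genes, was 12.7 to 29.7 M, with the highest values in 4 h library 6 and contralateral left library 5 and the lowest in 10 day library 5. The part of depth, mitochondrial share and gene length in the members' spread was not tested.

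The summed FPKM of 17 neuron markers, all of them detected, was 1763 to 1836 at 4 h, 1780 to 1862 at 1 day, 1501 to 1806 at 3 days and 1473 to 1581 at 10 days. It was 1370 to 1734 in contralateral left, against 1556 to 1717 in sham right. The 4 h and 1 day sums thus lay above sham right, where no neuron marker passed the test (0 of 17). Markers of other cell types were called lower at 4 h, where 2.18% of all tested genes were called in either direction. They were 3 of 8 endothelial (Itm2a, Slco1a4 and Tek) and 2 of 8 microglia markers (Gpr34 and Sall1). The others were 1 of 9 astrocyte (Aqp4) and 1 of 9 oligodendrocyte markers (Opalin). The microglia sum was 75.5 to 96.0 FPKM at 4 h, against 103 to 130 in sham right. The sum of 8 macrophage markers was 118 to 250 at 3 days and 598 to 2085 at 10 days, against 16.6 to 23.2 in sham right, with 5 of 7 tested markers called higher at 3 days and 6 of 7 at 10 days. The sum of 8 microglia markers was 246 to 341 at 3 days and 441 to 542 at 10 days, with 4 of 8 called higher at 3 days and 5 of 8 at 10 days. At 3 days, where Neat1 was highest, all 5 dividing cell markers were also called higher, with log2 fold changes from 1.73 to 2.56, among them Mki67 and Top2a. Over all tested genes, 7.36% were called at 3 days and 7.13% at 10 days, in either direction. All 5 dividing cell markers and the macrophage markers Msr1, Lgals3 and Ms4a7 averaged under 1 FPKM in sham right. The filter could thus admit them through groups where they were high, while Fcgr1, Cd68 and Lyz2 averaged more than 1 FPKM there. The part of these cell types in the members' levels was not tested.

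The proteins of the bodies that the members belong to were followed in lists. Of 14 tested paraspeckle proteins, 0 passed against sham right at any time after stroke or on the left side, and the median log2 fold change was 0.04 at 4 h, 0.08 at 1 day, 0.22 at 3 days and -0.12 at 10 days, against 0.0058, 0.03, 0.08 and -0.07 over all tested genes. Pspc1 was not analysed here. Over all tested genes, 1.18% to 7.36% passed against sham right at the 4 times and 0.0285% on the left side. Of 17 nuclear speckle and SR splicing proteins, 0 passed in the same comparisons, with medians of 0.40, 0.24, 0.32 and 0.11 at the 4 times, and 16 of 17 were above 0 at 4 h. Their median r was 0.890 with Snhg11, 0.870 with Meg3 and 0.840 with Malat1, against 0.441 with Neat1, 0.520 with Rian and 0.737 with Miat. The median over all other tested genes ran from 0.102 with Rian to 0.268 with Malat1. The paraspeckle proteins had a median r of 0.765 with Miat, 0.685 with Meg3 and 0.643 with Malat1. With Snhg11 they had 0.570, with Neat1 0.487 and with Rian 0.398. Pnisr, a speckle protein, ran from 2.61 to 13.5 FPKM with an r of 0.957 with Snhg11. Srrm2, a core protein of speckles, ran from 3.43 to 21.8 FPKM with an r of 0.897 with Meg3. Both were chosen after their values were seen. The list was not uniform, since Srsf3 had its lowest r, -0.091 with Snhg11 and 0.010 with Meg3. Srsf7 had 0.221 and 0.348. Of 4 splicing factors that bind Miat, 0 passed against sham right at any time. Between 10 days and 4 h, where 15.8% of all tested genes passed, Qk passed (0.65 ± 0.17, SE, limma adjusted p = 0.0166). It had 40.3 ± 5.07 FPKM at 10 days and 25.1 ± 1.51 at 4 h (SD). Over the libraries, Srsf1 had an r of 0.863 with Miat, Celf3 0.833, Sf1 0.779 and Qk -0.523.

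In the Dlk1-Dio3 domain, 4 of 7 entries in the table were tested. Mirg, the microRNA host beyond Rian, averaged 1.11 ± 0.29 FPKM at 4 h and 0.668 ± 0.035 in sham right (SD, n = 3 each; log2 fold change 0.33 ± 0.20, SE, limma adjusted p = 0.422). Its r was 0.927 with Meg3 and 0.690 with Rian, so that of the 3 maternal RNAs Rian was the one with the steady level. Begain, at the other end of the domain, had 17.8, 18.7 and 6.72 FPKM at 10 days, against 23.9, 18.4 and 17.9 FPKM in sham right. The difference of -0.56 ± 0.26 (SE, limma adjusted p = 0.253) was -0.12 without 10 day library 5. Dlk1, Rtl1 and Dio3, the coding genes expressed from the paternal copy, stayed at or under 0.296, 0.844 and 0.973 FPKM and were below the filter.

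Of 12 tested small nucleolar RNA hosts other than Snhg11, Snhg1 rose at 4 h (log2 fold change 0.50 ± 0.12, SE, limma adjusted p = 0.0406) and at 3 days (0.41 ± 0.12, adjusted p = 0.0488), with 3.57 ± 0.52 FPKM at 4 h, 3.28 ± 0.53 at 3 days and 2.21 ± 0.075 in sham right (SD). Snhg18 rose at 10 days (0.46 ± 0.13, limma adjusted p = 0.0369), with 1.61 ± 0.17 FPKM at 10 days and 0.919 ± 0.35 in sham right. Passing was lost in many fits that left out 1 of the 18 libraries: Snhg1 passed in 9 of 18 at 4 h (adjusted p up to 0.154, without sham library 3) and in 4 of 18 at 3 days (up to 0.282, without 3 day library 8), and Snhg18 in 11 of 18 (up to 0.221, without sham library 1). At 1 day 0 hosts passed, and 0 fell at any time. At 4 h, 3 days and 10 days 1 of 12 hosts passed each. Over all tested genes, 2.18% passed at 4 h, 1.18% at 1 day, 7.36% at 3 days and 7.13% at 10 days. Over the libraries, Snhg14 had an r of 0.870 with Snhg11, while Gas5 (-0.731), Snhg6 (-0.795) and Snhg8 (-0.707) went the other way; these 4 were chosen after their values were seen. Gas5 is a host whose RNA carries a terminal oligopyrimidine start like that of ribosomal protein genes.

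Of 13 other tested long noncoding RNAs, Mir9-3hg, a microRNA host, rose at 4 h (1.16 ± 0.29, SE, limma adjusted p = 0.0474), with 6.71 ± 1.03 FPKM at 4 h and 2.50 ± 0.78 in sham right (SD). C130071C03Rik, another microRNA host, fell by 0.47 on the log2 scale at 4 h (SE 0.10, limma adjusted p = 0.0290), with 7.45 ± 0.81 FPKM at 4 h and 10.65 ± 0.83 in sham right. Of 18 fits without 1 library, Mir9-3hg passed in 5 (adjusted p up to 0.191, without sham library 1) and C130071C03Rik in 13 (up to 0.141, without sham library 2). H19, an imprinted RNA of growing tissue, rose at 3 days (1.42 ± 0.40, limma adjusted p = 0.0383) and at 10 days (3.12 ± 0.40, adjusted p = 4.27e-05), with 2.48 ± 1.38 FPKM at 3 days, 12.5 ± 11.3 at 10 days and 0.246 ± 0.16 in sham right (SD). Its highest library held 25.5 FPKM. H19 reached 1 FPKM only in 3 day and 10 day libraries. It thus met the filter only through the groups where it was high, and its tests there are not independent of that filter. H19 passed in 18 of 18 fits without 1 library at 10 days and in 12 of 18 at 3 days (adjusted p up to 0.234, without 3 day library 8). Of the 13, 1 was called higher and 1 lower at 4 h, where 2.18% of all tested genes passed. At 1 day 0 were called (1.18% of tested genes), at 3 days 1 (7.36%) and at 10 days 1 (7.13%). Firre (r = 0.963 with Meg3), Mir124a-1hg (0.961) and Ftx (0.955) went with Meg3 over the libraries, as chosen after their values were seen. Tug1, with an r of 0.105 with Meg3, stayed between 8.41 and 14.7 FPKM.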

How the data were processed

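Total RNA libraries of 18 brain punches in 6 groups were analysed as FPKM. The tools that made the values were HISAT2 2.1.0, StringTie 1.3.4d and Trimmomatic 0.36 with mouse build GRCm38, per the submitters' processing notes; annotation, strand handling and scaling between libraries are not given in the sources used here. The FPKM were used as the authors deposited them. FPKM are relative to the sum of a library, so abundant mitochondrial RNA lowers all other values. The copy used here ends inside a line: 34921 complete entries were read, ordered by the q-value the authors deposited, and later entries were not analysed here; 34797 identifiers matched GENCODE M21. Those p- and q-values were not used.

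Genes with at least 1 FPKM in 3 or more libraries (14016) were fitted as log2(FPKM + 1) in R 4.3.3 with the packages limma 3.58.1 and statmod 1.5.0, 1 mean per group, trend and robust moderation and Benjamini-Hochberg adjustment over all tested genes. Correlations used 100000 permutations. The fit was tested on simulated data. Named genes were the members, the 3 most correlated genes of each, up to 4 called genes per list and comparison with the smallest adjusted p, all measured genes of the Dlk1-Dio3 list and marker sums. Members, lists and rules were chosen with earlier results of these data known. Library numbers were not used as pairs, since no label says that they mark a shared mouse. Depth is known only roughly, so no counting intervals are given. The limma p-values rest on the spread between libraries of a group, pooled over all 6 groups and moderated over genes. Permutation p-values come from shuffling all 18 libraries for correlations and 3 against 3 libraries for ratios.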

Additional observations from a re-analysis of the deposited data

Results flagged for a closer look

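Rian differed in sign between 2 times against the mean of sham right: all 3 libraries at 1 day lay above that mean and all 3 at 10 days below it, and the mean difference between 10 days and 1 day was -0.30 on the log2(FPKM + 1) scale. This difference between times was not tested.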

How the results depend on the processing

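The number of members passing, 0 in each comparison, stayed at 0 under every alternative except the following and a paired fit of the left and sham right libraries given below. It was 2 at 4 h against sham right with only the groups compared (Malat1 and Snhg11). It was 1 (Neat1) at 3 days against sham right with both controls (adjusted p = 0.0384), with only the groups compared (0.0354), without contralateral left 5 and 10 days 5 together (0.0307), and in the range of 0 to 1 when 1 library was left out (1 without 3 day library 2 or 10 day library 5). It was 1 (Neat1, 0.0471) between 3 days and 1 day and 1 (Rian, 0.0242) between 10 days and 4 h without contralateral left 5 and 10 days 5. It was 1 (Rian) between 10 days and 4 h when rescaled without mitochondrial genes, and 0 to 1 when 1 library was left out (1 without contralateral left library 5). Where only libraries outside the compared groups were left out, the fold change is the same by design and the estimated spread differs. For the other settings the cause was not tested.

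Directions changed only for members that did not pass. With median-of-ratios scaling, the log2 fold change was -0.00031 for Neat1 at 1 day, -0.022 for Rian at 3 days, 0.017 for Malat1 at 10 days and 0.057 for Neat1 on the left, all against sham right. With quantile normalization it was -0.0035 for Neat1 at 1 day, 0.018 for Malat1 at 10 days and 0.043 for Neat1 on the left. With contralateral left as control it was -0.064 for Rian at 3 days, 0.48 for Malat1 and -0.17 for Meg3 at 10 days; with both controls 0.22 for Malat1 and -0.063 for Meg3 at 10 days. Without contralateral left 5 and 10 days 5 it was 0.24 for Malat1 and 0.32 for Miat at 10 days, -0.0025 for Miat, -0.68 for Meg3 and -0.48 for Snhg11 on the left, and 0.21 for Neat1 between 10 days and 4 h. With the mitochondrial share as covariate, added after seeing the data, it was -0.12 for Neat1 at 1 day, 0.36 for Malat1 and 0.21 for Miat at 10 days, 0.14 for Neat1 on the left, -0.072 for Malat1 and -0.12 for Miat between 3 days and 1 day, and 0.11 for Neat1 between 10 days and 4 h.

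With the library number as a replicate block it was -0.17 for Neat1 at 1 day, -0.019 for Rian at 3 days, -0.37 for Meg3 and -0.11 for Snhg11 at 10 days, and 0.089 for Neat1, -0.12 for Meg3 and -0.13 for Snhg11 on the left, and the block over all groups changed no call of a member. Deviations of same-numbered libraries had a median r of 0.037 over 23 pairs, 9 of them over 0.1. Those of differently numbered libraries had a median r of -0.011 over 112 pairs, 36 of them over 0.1. Deviations from means of only 3 libraries cannot settle whether shared numbers mark a pairing. For the left and sham right libraries, r was 0.22 for number 1 and 0.10 for number 3, and 2 pairs cannot settle whether they are sides of one mouse. With these 2 groups fitted alone with the replicate block, an alternative added after seeing the data, the count of members passing was 1 (Malat1) and of all genes 1733 (4 as reported), with -0.55 for Meg3 and -0.37 for Snhg11.

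With each library left out in turn, these changes crossed 0 and had the following lowest and highest values. On the left side the range was -1.52 to 0.047 for Malat1, -0.68 to 0.73 for Meg3, -0.0025 to 0.83 for Miat, -0.049 to 0.023 for Neat1 and -0.48 to 0.82 for Snhg11. Between 1 day and 4 h the range was -1.04 to 0.12 for Malat1, -0.91 to 0.22 for Meg3, -0.48 to 0.37 for Miat, -0.38 to 0.024 for Neat1, -0.084 to 0.0066 for Rian and -0.70 to 0.14 for Snhg11. At 10 days the range was -0.72 to 0.33 for Malat1, -0.47 to 0.35 for Meg3, -0.63 to 0.32 for Miat and -0.14 to 0.45 for Neat1. Between 3 days and 1 day the range was -0.42 to 0.73 for Malat1, -0.31 to 0.82 for Meg3, -0.35 to 0.49 for Miat and -0.25 to 0.62 for Snhg11. At 1 day the range was -0.14 to 0.26 for Neat1. Between 10 days and 4 h the range was -0.38 to 0.21 for Neat1. At 3 days the range was -0.0061 to 0.13 for Rian.

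The count of genes passing over all settings other than leaving out 1 library ran from 106 to 1806 at 4 h, 62 to 418 at 1 day, 427 to 1834 at 3 days, 439 to 1312 at 10 days and 0 to 2760 on the left, and from 863 to 3306 for a change at any time. Rescaling without mitochondrial genes moved the median of all genes at 4 h to 0.10 (0.0058 as reported) and between 10 days and 4 h to -0.19 (-0.074). Neat1 has no value under a filter of 5 FPKM. Of the 3 genes most like a member, 2 recurred for Meg3 on deviations from group means and 1 for Rian with Spearman's rho, and 0 in the other cases. With 3 libraries a group and SDs near 1 on the log2 scale, intervals of Malat1 and Meg3 reached about 1.5 log2 units each way. Neat1, at about 2 FPKM, rests on few reads per base.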
